A study of Mus musculus with 2 samples.

Results

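The genes described here are Cmtm3, Cmtm4, Cmtm6, Cmtm7 and Cmtm8 of the CMTM family and the related pair Pcp4 and Pcp4l1, 7 of the 37074 gene names on the array. Cmtm7 and Pcp4l1 were chosen by their lower ratio of lu/lu to wild type signal on these same arrays, and the other 5 genes were taken in as their relatives, whatever their own values. The values of Cmtm7 and Pcp4l1 are therefore given as a description without a test, and the question asked is whether the relatives moved with them.

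The RNA came from the brain of mouse embryos at E10.5 (forebrain and midbrain by the methods). Wild type embryos (C57BL/6 by the labels) were compared with homozygous luxoid embryos, written lu/lu, which carry a spontaneous mutation that truncates Plzf (Zbtb16), a BTB zinc finger transcription factor, in every cell of the body rather than in a chosen cell type. Each of 2 arrays paired 1 wild type sample, labeled with Cy3, with 1 lu/lu sample, labeled with Cy5. The dyes were not exchanged, so that a dye effect at a probe and the genotype cannot be told apart, and the number of embryos behind a sample is not given in the sources used here.

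CMTM proteins (CKLF-like MARVEL transmembrane domain containing proteins) cross the membrane several times and act in the traffic of other proteins to and from the cell surface. CMTM6, and CMTM4 as its close relative, keep the immune checkpoint ligand PD-L1 at the surface, whereas CMTM3, CMTM7 and CMTM8 have been tied to the uptake of the EGF receptor, and CMTM7 also to B cell receptor signaling. Pcp4 (PEP-19), known from Purkinje cells, and Pcp4l1 encode small polypeptides with an IQ motif, the calmodulin-binding motif, and Pcp4l1 is known for restricted expression in the developing brain, including the midbrain-hindbrain region.

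The probes decide what each value stands for. All probes are 60 bases long, and the array carried 10 of them for the 7 genes. Cmtm7, Cmtm8 and Pcp4l1 had more than 1 probe, and the one with the highest mean signal stood for the gene. The names and accessions of the 7 genes matched RefSeq in 7 of 7 cases. Coordinates are given in build mm9, as the deposited array annotation lists them. The exon or untranslated region that a probe lies in was not analysed here. The probes of Cmtm7 and Pcp4l1, the genes chosen for their lower values, are shown by their last 30 bases, 5′ to 3′. Beside them stand the brightest probes of the relatives that passed the signal filter described below, and that of Pcp4, which did not pass. The hexamer AATAAA is in capitals where it occurs.
Cmtm7, brighter probe: ggtcttgaagcgtctctaagtgaagagcca
Cmtm7, dimmer probe: tatggtagtccggacctgtatcccttatag
Pcp4l1, brighter probe: tagcatgtttaataatgatgacAATAAAaa
Pcp4l1, dimmer probe: aggcctccccttaacccttctacttcctct
Cmtm3: tctgtaacctaagaggccccatgaataagg
Cmtm6: gatcacttttgtatttgttgatttaaagcc
Cmtm8, brighter probe: ttacttggggagtgctgcggcttctaatga
Pcp4: agtatttatgccccctataggcaggtatcc

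AATAAA, the usual polyadenylation signal, lay in 2 of the 10 probes, the brighter Pcp4l1 probe and the dimmer Cmtm8 probe, and in 9.77% of the 56605 gene probes of the array. Its reverse complement, TTTATT, lay in 0 of the 10 and in 3.85% of all. The longest stretch shared by any pair of the 10 probes was 7 bases.

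Cmtm7 (NM_133978) was read by a probe at chr9:114666067-114666126 on the minus strand. Its processed signal, the intensity of a spot once background was subtracted and the dyes were normalized, was 1169 in wild type and 613 in lu/lu on array 1, and 1203 in wild type and 648 in lu/lu on array 2. Within each genotype the arrays gave nearly the same signal. The lu/lu signal was 0.524 of the wild type signal on array 1 and 0.539 of it on array 2, and the log2 ratio averaged -0.91 ± 0.03 (SD, n = 2 arrays). A second probe, annotated to the transcript AK040123 at chr9:114670813-114670872, was dim. It gave 13.8 in wild type and 11.7 in lu/lu on array 1, and 15.4 and 15.3 on array 2, with log2 ratios of -0.24 and -0.01. The dimmer probe thus did not show the difference that the brighter one did, at a signal-to-noise ratio below the minimum of 5 in every channel.

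Pcp4l1 (NM_025557) was read at chr1:173103423-173103482 on the minus strand. The processed signal was 729 in wild type and 271 in lu/lu on array 1, and 504 in wild type and 240.4 in lu/lu on array 2. The wild type signal differed more between the arrays than the lu/lu signal did. The ratio was 0.372 on array 1 and 0.477 on array 2, and the log2 ratio averaged -1.25 ± 0.25 (SD, n = 2 arrays). Its second probe, for the same transcript, lies 1055 bases away at chr1:173104478-173104537. That probe gave 127 in wild type and 77.9 in lu/lu on array 1, and 103 and 75.6 on array 2, with log2 ratios of -0.70 and -0.45. It was below the signal minimum of 200 but well above background in every channel, and it was lower in lu/lu on both arrays by a smaller ratio than the brighter probe.

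**Figure D1:**
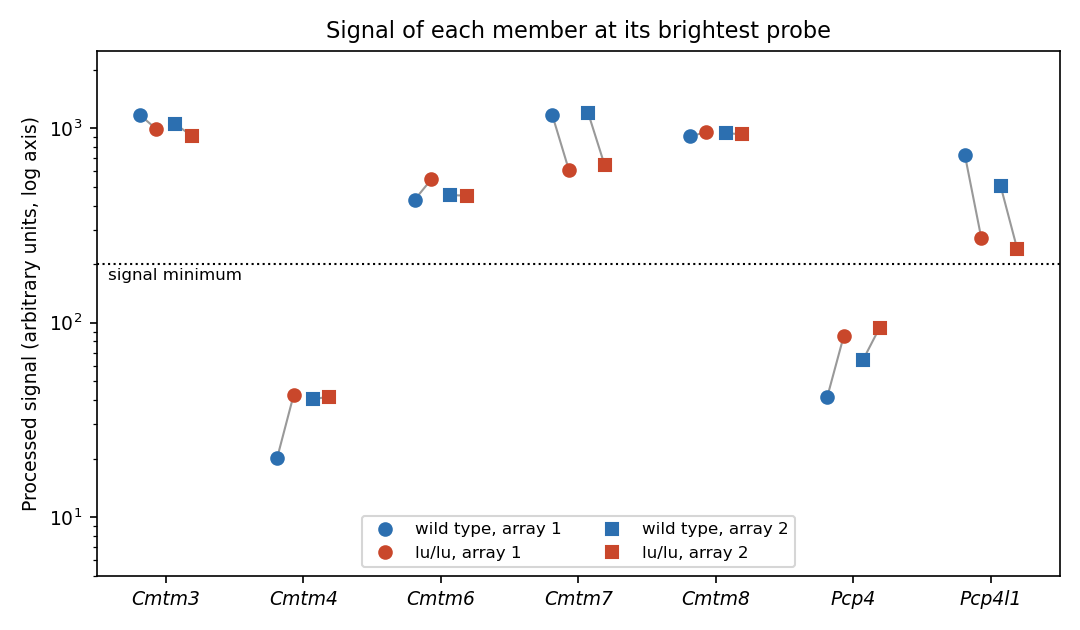
Processed signal in arbitrary units on a log axis for the brightest probe of each of the 7 genes, with wild type in blue, lu/lu in red, circles for array 1, squares for array 2, and a grey line joining the samples of 1 array. Cmtm7 goes from 1169 to 613 and from 1203 to 648, Pcp4l1 from 729 to 271 and from 504 to 240.4, while Cmtm8 stays level, and Cmtm4 and Pcp4 lie under the dotted signal minimum of 200. Heights of different genes are not comparable, since each probe has its own brightness.

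A gene passed the filter on low values when its processed signal exceeded 200 at a signal-to-noise ratio of 5 or more in each of the 4 channels. This held for 10600 genes and for 5 of the 7 described here: Cmtm3, Cmtm6, Cmtm7, Cmtm8 and Pcp4l1. Cmtm4 and Pcp4 did not pass. A passing gene was counted as lower or higher when it differed by more than 1.3-fold in the same direction on each array. Of all passing genes, 0.736% were lower and 2.58% were higher by this rule. Cmtm7 and Pcp4l1 met the rule for lower genes, as their choice required, and ranked 5 and 4 among the 78 lower genes by the smaller of their changes on the 2 arrays. Among the 3 relatives that passed, 0 were lower and 0 were higher. The member nearest to the threshold from the inside was Cmtm7, at ratios of 0.524 and 0.539. Nearest from the outside by the smaller change was Cmtm3, at ratios of 0.845 and 0.872, and Cmtm6 came close on array 1 only, at 1.27 and 0.995.

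The relatives were tested with limma on the log2 ratios, with Benjamini-Hochberg adjustment over the 10600 genes. The exact sign-flip test on 2 arrays cannot go under p = 0.5 and was not used for single genes. Across all genes, 0.0283% had an adjusted p under 0.05 and 27.8% an unadjusted p under 0.05. The genes with an adjusted p under 0.05 were 3 higher and 0 lower ones. Of the 3 relatives tested, 0 had an adjusted p under 0.05 and 1, Cmtm3, had an unadjusted p under 0.05. Since no lower gene of the array reached an adjusted p under 0.05, this count does not show that the relatives were not lower. Replicates here are the pairs on the 2 arrays, which the labels call biological.

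Cmtm3 (NM_024217, chr8:106871417-106871476, plus strand) gave 1173 in wild type and 991 in lu/lu on array 1, and 1048 and 913 on array 2. The lu/lu value was below the wild type value on each array, as in 35.4% of all passing genes, and by far less than for Cmtm7. The log2 ratio averaged -0.22 ± 0.03 (SD, n = 2 arrays), with a 95% interval from limma of -0.41 to -0.03 and an adjusted p of 0.137 (unadjusted p = 0.0275). The interval holds ratios from 0.754 to 0.976.

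Cmtm6 (NM_026036, chr9:114658332-114658391, plus strand), the regulator of PD-L1, gave 429 in wild type and 545 in lu/lu on array 1, and 452 and 449.8 on array 2. Its lu/lu signal was higher on the first array and level on the second. The log2 ratio averaged 0.17 ± 0.25 (SD, n = 2 arrays), with a 95% interval from limma of -0.09 to 0.43 and an adjusted p of 0.338. The mean rests on array 1, since array 2 alone gave -0.01.

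Cmtm8 (NM_027294, chr9:114698535-114698594, minus strand) gave 907 in wild type and 955 in lu/lu on array 1, and 944 and 929 on array 2. The 4 values overlapped between genotypes. The log2 ratio averaged 0.03 ± 0.07 (SD, n = 2 arrays), with a 95% interval from limma of -0.17 to 0.22 and an adjusted p of 0.846. The bounds correspond to ratios of 0.892 and 1.16. A dimmer probe, annotated to AK161079 at chr9:114750743-114750802, gave 27.3 in wild type and 27.99 in lu/lu on array 1, and 33.5 and 32.7 on array 2, again without a clear difference.

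Set against its relatives within the same array, Cmtm7 had the lower log2 ratio in all 6 pairings. The gap to Cmtm3 was -0.69 on both arrays. The gap to Cmtm6 was -1.28 on array 1 and -0.88 on array 2, and that to Cmtm8 was -1.01 and -0.87. These gaps are differences between log2 ratios and are given without a test, because Cmtm7 was chosen for its low ratio. The SD between the arrays of the log2 ratio of a single gene had a median of 0.084 over all passing genes, and was 0.25 for Cmtm6. These values are not the spread of a gap between genes and give no test of the gaps.

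**Figure D2:**
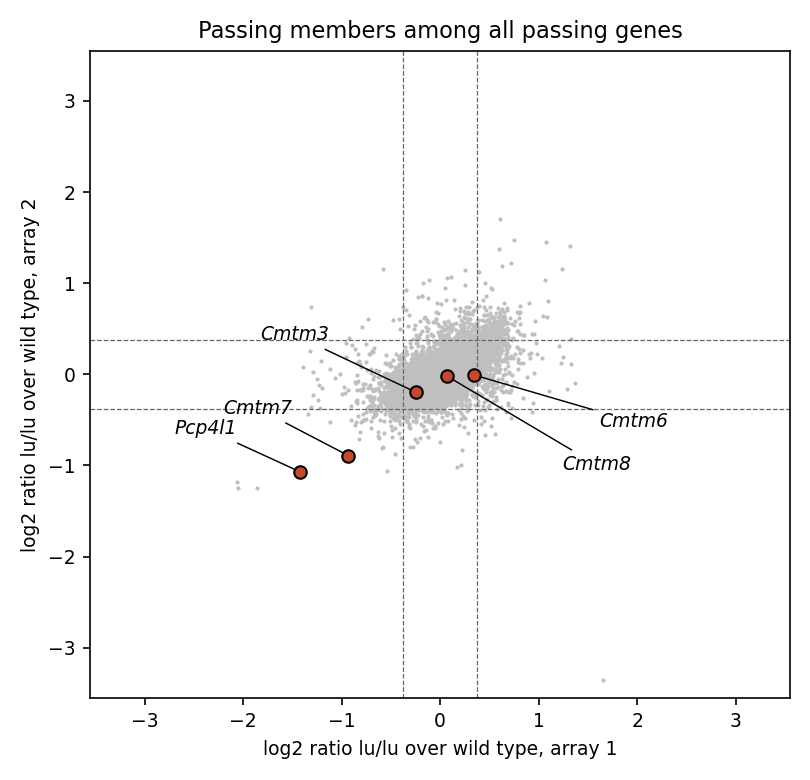
Log2 ratio of lu/lu to wild type on array 1 (horizontal) and array 2 (vertical) for the 10600 passing genes in grey, with the 5 passing members in red and dashed lines at 1.3-fold. Pcp4l1 (-1.43 and -1.07) and Cmtm7 (-0.93 and -0.89) lie in the lower left corner, and Cmtm3, Cmtm6 and Cmtm8 lie within the main cloud.

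Pcp4, the closest relative of Pcp4l1, had ratios above 1 on both arrays at a low signal. Its probe (NM_008791, chr16:96747241-96747300, plus strand) gave 41.6 in wild type and 85.6 in lu/lu on array 1, and 64.4 and 94.1 on array 2. The lu/lu value was the higher one on each array, and the share of dim genes of which this holds is not given here. All 4 values were well above background. The scanner software gave errors of 4.89 and 8.65 for the channels of array 1 and 6.62 and 9.52 for those of array 2. The ratio was 2.06 on array 1 and 1.46 on array 2, and the log2 ratio averaged 0.79 ± 0.35 (SD, n = 2 arrays). Since Pcp4 did not reach the signal minimum, it was not among the genes tested. When the 23284 genes well above background were tested in place of the brighter genes, limma gave it an adjusted p of 0.252 (unadjusted p = 0.00721), so that the difference did not pass. The gap between the log2 ratios of Pcp4l1 and Pcp4 was -2.47 on array 1 and -1.62 on array 2. It is given without a test, because Pcp4l1 was chosen for its low ratio and Pcp4 lay under the signal minimum. With normexp background correction and centring on the passing genes, Pcp4 had log2 ratios of only 0.21 and 0.08.

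Cmtm4 (NM_153582, chr8:106875205-106875264, minus strand) was dim as well. It gave 20.2 in wild type and 42.5 in lu/lu on array 1, and 40.4 and 41.7 on array 2. Only the wild type sample of array 1 stood apart from the rest. The log2 ratio was 1.07 on array 1 and 0.05 on array 2, a mean of 0.56 ± 0.73 (SD, n = 2 arrays). Among the genes well above background, its adjusted p by limma was 0.375.

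**Figure D3:**
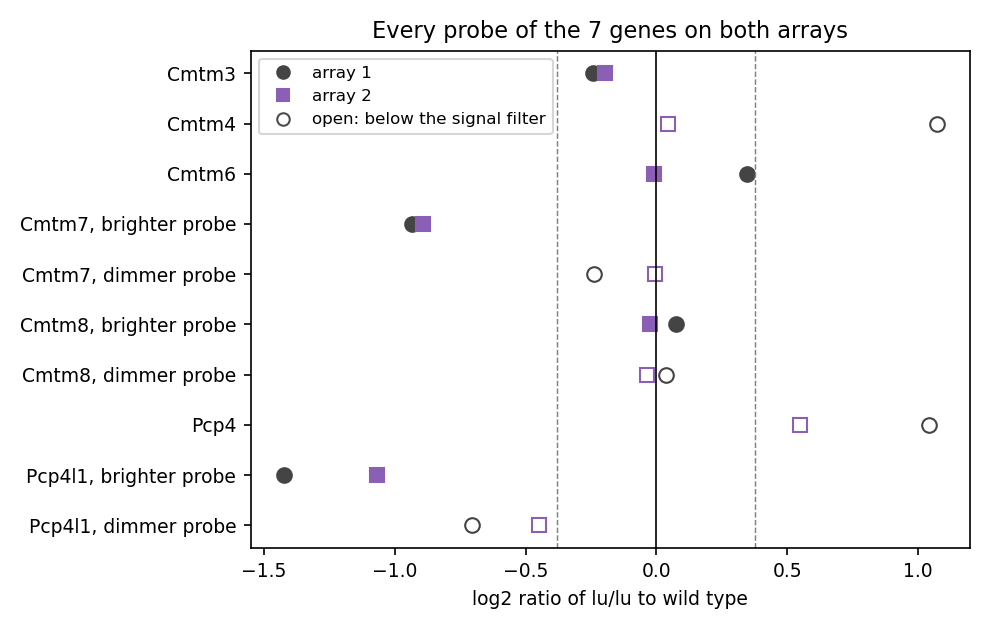
Log2 ratio of lu/lu to wild type at each of the 10 probes, with circles for array 1 and squares for array 2. Filled symbols passed the signal filter, open ones did not, and dashed lines mark 1.3-fold. The brighter and dimmer Pcp4l1 probes are below 0 on both arrays, the dimmer Cmtm7 probe is at -0.24 and -0.01, and Pcp4 is above 0 on both arrays.

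The array also carried the other CMTM genes, Cklf, Cmtm1, Cmtm2a, Cmtm2b and Cmtm5, with 13 probes. Of these 5 genes, 1 passed. Cklf (NM_029295, chr8:106787208-106787267), which encodes the chemokine-like factor that gave the family its name, gave 933 in wild type and 886 in lu/lu on array 1, and 923 and 864 on array 2. The lu/lu values were slightly lower on both arrays, with a log2 ratio averaging -0.08 ± 0.02 (SD, n = 2 arrays) with an adjusted p by limma of 0.482 and a 95% interval of -0.27 to 0.10. Its 3 probes did not run the same way, with mean log2 ratios of -0.08, 0.17 and -0.14. Cmtm2a gave 164 in wild type and 163 in lu/lu on array 1, and 160 and 171 on array 2. Cmtm2b gave 69.3 and 72.6 on array 1, and 86.3 and 89.4 on array 2. Both were level between the genotypes at their brightest probes. Cmtm5 gave 31.2 in wild type and 24.2 in lu/lu on array 1, and 27.6 and 21.99 on array 2, while its other probe, at a similar signal, gave log2 ratios of -0.11 and 0.23. Cmtm1 was not well above background at any of its probes in every channel, and no ratio is given for it. A dim Cmtm2a probe shared 21 bases with a Cklf probe.

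The EGF receptor family, PD-L1, the RAB5 proteins of early endosomes and the endothelial cadherin Cdh5, with which CMTM proteins have been linked, formed a list of 9 genes, of which 5 passed. In this list 0 genes were higher and 0 lower by the 1.3-fold rule, and 0 had an adjusted p by limma under 0.05. Its median log2 ratio was 0.06, beside 0.0067 over all passing genes. Erbb2 and Erbb4, receptors of the EGF receptor family, had mean log2 ratios of 0.06 and -0.11. Rab5a and Rab5b had -0.16 and 0.10. Rab5c turned from 0.72 on array 1 to -0.48 on array 2. Egfr, Erbb3, Cdh5 and Cd274, which encodes PD-L1, did not pass, and Cd274 was not well above background in every channel.

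Other membrane proteins with a MARVEL domain formed a list of 17 genes. Of these, 5 passed, 0 were higher and 0 were lower. The median log2 ratio was -0.05, beside 0.0067 over all passing genes. Sypl, a relative of synaptophysin, had 0.53 on array 1 and 0.26 on array 2, and the mean log2 ratios of Plp2, Syp, Syngr1 and Syngr2 ran from -0.09 to -0.02.

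For the Pcp4 family, the list held 24 calmodulin genes, calmodulin-binding proteins and related genes such as Myl6 and Ppp3r1, of which 14 passed. By the 1.3-fold rule 0 were higher and 0 were lower, and 0 had an adjusted p by limma under 0.05. Most of its passing genes lay slightly above 0, with a median log2 ratio of 0.21 beside 0.0067 over all passing genes. Of the 14 genes, 11 were above 0 on both arrays, a share of 78.6%, compared with 37.3% of all passing genes. Calm2 and Calm3, which encode calmodulin, had mean log2 ratios of 0.27 and 0.19. The subunits of the calmodulin-dependent phosphatase calcineurin, Ppp3ca, Ppp3cb and Ppp3r1, had 0.27, 0.25 and 0.32. Gap43, a growth cone protein that also carries an IQ motif, had 0.23 on array 1 and 0.44 on array 2. Marcksl1 and Myl6, at mean log2 ratios of -0.27 and -0.10, were the 2 genes below 0 on both arrays. Averaged over all probes of a gene, the median of the list was 0.07. Neurogranin (Nrgn), a further IQ motif protein, did not pass.

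Cmtm6, Cmtm7 and Cmtm8 lie side by side on chromosome 9, with the probe of Cmtm6 7.735 kb and that of Cmtm8 32.5 kb from the probe of Cmtm7. The lower signal of Cmtm7 was thus flanked on each side by a relative that was not lower by the 1.3-fold rule. Beyond them, Dync1li1, a dynein subunit 33.0 kb from Cmtm7, had log2 ratios of 0.31 and 0.11 (adjusted p by limma 0.186), and Gpd1l, 143 kb away on the other side, had -0.29 and -0.32 (adjusted p by limma 0.0844). Within 1 Mb of Cmtm7, 17 genes passed, of which 0 were lower and 0 were higher, with mean log2 ratios from -0.31 to 0.40. The Plzf gene lies on the same chromosome, 66.2 Mb from Cmtm7. Its own probe gave 433 in wild type and 172 in lu/lu on array 1, and 546 and 211 on array 2.

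Around Pcp4l1 on chromosome 1, the nearest 2 passing genes on each side were below 0 on both arrays in 4 of 4 cases, compared with 35.4% of all passing genes. Among the corresponding neighbours of Cmtm7 only Gpd1l was below 0 on both arrays, and among those of Cmtm3 only Tk2 and Cklf were. Whether position plays a part was not tested. Cfap126, a gene of motile cilia 46.5 kb away, gave 443 in wild type and 310 in lu/lu on array 1, and 409 and 310 on array 2. Its ratio was beyond 1.3-fold on each array, with a log2 ratio averaging -0.46 ± 0.08 (SD, n = 2 arrays), and did not pass limma (adjusted p = 0.0566). Sdhc, a subunit of succinate dehydrogenase 43.9 kb away, had a mean log2 ratio of -0.29 (adjusted p by limma 0.0977). On the other side, Tomm40l at 44.5 kb had -0.16 (adjusted p by limma 0.232) and Apoa2 at 53.0 kb had -0.21 (adjusted p by limma 0.146). Within 1 Mb, 27 genes passed, of which 1 was lower and 0 were higher. Their median log2 ratio was -0.06, beside 0.0067 over all passing genes.

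**Figure D4:**
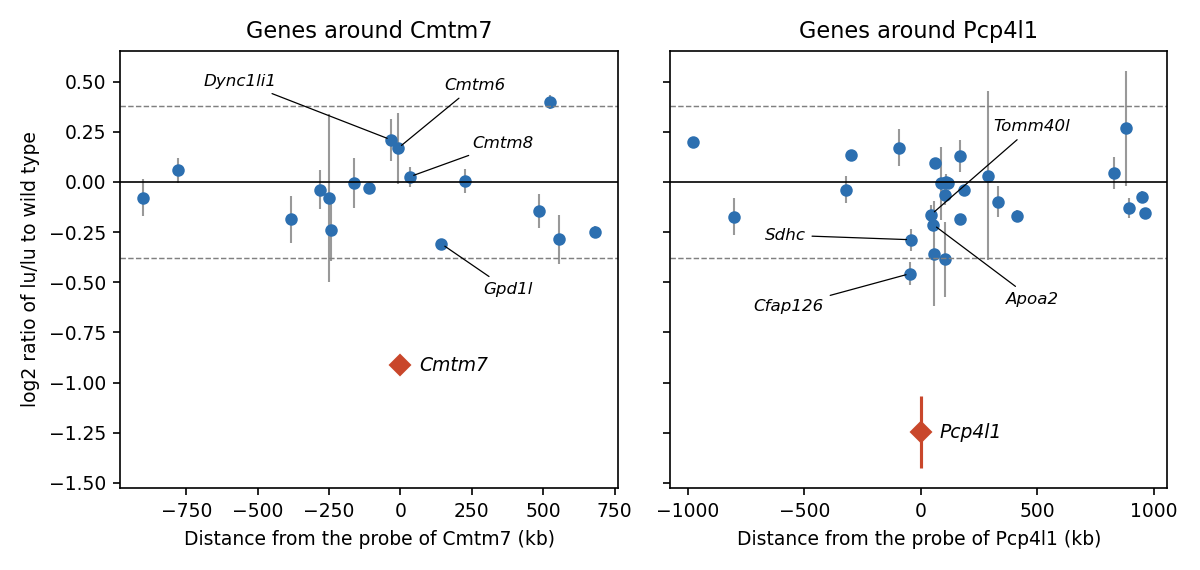
Mean log2 ratio of lu/lu to wild type (points) for the passing genes within 1 Mb of Cmtm7 and of Pcp4l1, against the distance of their probes in kb, with grey lines spanning the 2 arrays and dashed lines at 1.3-fold. Cmtm6 (0.17) and Cmtm8 (0.03) flank Cmtm7 (-0.91), and Cfap126 (-0.46) and Sdhc (-0.29) are the nearest genes on the left of Pcp4l1 (-1.25).

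Cmtm3 and Cmtm4 form a second cluster on chromosome 8 with Cklf, Cmtm1, Cmtm2a and Cmtm2b, and their probes lie 3.788 kb apart. Cklf, 84.2 kb from Cmtm3, is described above. On the other side, Dync1li2 at 70.4 kb, a dynein subunit like Dync1li1 beside Cmtm6, had a mean log2 ratio of 0.26 (adjusted p by limma 0.108). Within 1 Mb of Cmtm3, 15 genes passed, of which 0 were lower and 1, Pdp2, was higher. Pcp4 lies in a sparser stretch of chromosome 16. Its nearest passing neighbours, Wrb at 368 kb and Hmgn1 at 404 kb on one side, had mean log2 ratios of -0.03 and 0.29.

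Passing genes were compared by the distance between their log2 ratios over the 2 arrays. Among them, the genes most like Cmtm7 were Eva1b (-0.82 and -0.71), Eif5a (-0.81 and -0.63) and Bax (-0.86 and -0.56), at distances of 0.216, 0.288 and 0.340. Eif5a encodes a translation factor and Bax a promoter of apoptosis. Most like Pcp4l1 among the passing genes were En2 (-1.86 and -1.25), a homeobox factor of the midbrain-hindbrain border, then Cmtm7 itself, then Samd14 (-1.12 and -0.53), at distances of 0.472, 0.523 and 0.623. Genes under the signal filter were left out, among them the Plzf gene, at log2 ratios of -1.33 and -1.37. With 2 ratios per gene, this likeness is a description only.

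In bulk RNA, fewer cells of a type and less RNA per cell cannot be told apart. Several marker lists held genes beyond 1.3-fold on both arrays, and their part in the values of Cmtm7 and Pcp4l1 was not tested. Counts in these lists stand beside 0.736% lower and 2.58% higher among all passing genes. Summed signals run over all genes of a list on the array, whether they passed or not. Of 13 isthmus markers, which mark the midbrain-hindbrain border, 6 passed and 1, En2, was lower. The signal summed over all 13 went from 6040 in wild type to 4177 in lu/lu on array 1 and from 5932 to 4001 on array 2. En1 was not well above background in every channel. En2 alone went from 1917 to 527 on array 1 and from 2310 to 974 on array 2. The median log2 ratio of the 6 passing isthmus genes was -0.13. The filter must be met in lu/lu as well, so a marker can fail it by being low there. With the filter met in at least 1 channel, the isthmus median was -0.30 over 9 genes. It was -0.35 over the 12 genes well above background and -0.39 over all 13 without a filter. Of 10 endothelial markers, 4 passed and 3 were lower, namely Emcn, Plvap and Icam2. The signal summed over all 10 went from 6115 to 4993 on array 1 and from 6660 to 4603 on array 2. Of 8 roof plate markers, 5 passed and 1, Rspo1, was lower. The roof plate median was -0.03 over the 5 passing genes, -0.22 over the 6 well above background and -0.55 over all 8 without a filter. Gdf7 and Ttr were not well above background in every channel. Of 9 forebrain markers, 7 passed, among them Six3 and Dlx2, 3 were higher and 0 were lower. Of 8 neuronal markers, 7 passed and 1, Elavl4, was higher. Erythroid markers went from 469610 to 251430 on array 1 and from 194930 to 238020 on array 2. Macrophage markers went from 3800 to 2896 on array 1 and from 3018 to 2873 on array 2. Of the 6 markers of B lymphocytes, a cell type in which Cmtm7 is known to act, 0 passed, and Cd79a was not well above background in every channel. Mesenchyme and crest markers, with 8 of 9 passing, and surface ectoderm markers, with 6 of 8, held 0 higher and 0 lower genes. The surface ectoderm markers went from 8987 to 13157 on array 1 and from 12256 to 9871 on array 2.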

How the data were processed

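RNA of E10.5 brain was measured on 2 arrays with 2 dyes, and samples were grouped by the labels. The authors scanned Agilent SurePrint G3 Mouse v2 arrays and used Feature Extraction 10.7.3.1, which subtracted background and normalized the dyes by rank-consistency LOWESS. The deposited values are spot intensity, raw and processed, and a log10 ratio. A deposited series table holds the same ratios as log2, within 0.005. Positions (mm9) come from the annotation deposited with the arrays.

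From these files, control and outlier spots (137 and 126) were left out, repeated spots were averaged as log2 values, and each gene was represented by its brightest probe. No spot of the 7 genes was saturated. The signal minimum of 200 was exceeded by 27.7% to 27.8% of gene spots, depending on the channel, and the number of arrays limits the precision. Log2 ratios were fitted with limma 3.58.1 in R 4.3.3 (intercept, eBayes, Benjamini-Hochberg over all passing genes). The ratio within an array is the pairing of its wild type and lu/lu samples. On simulated data, the check required only that the 1.3-fold rule recover most genes simulated as lower, and it set no requirement for limma. Tables and figures were made in Python 3.11.15 with pandas 2.3.3 and matplotlib 3.10.9.

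The members, the lists and the rule for named genes were chosen with earlier results of these data known. Named genes are the members and all their probes, the other CMTM genes, the nearest 2 passing genes on each side of a member, the 3 passing genes nearest to Cmtm7 and to Pcp4l1 by Euclidean distance of the log2 ratios, and list genes beyond 1.3-fold on both arrays. Pathway genes that passed without reaching 1.3-fold were named after their values were seen. Alternatives were normexp background correction (offset 50) with loess or centring, the deposited log2 table, removal of the GC trend, the mean over probes, 3 other filters, a threshold of 1.5-fold, eBayes with trend, channels without pairing, and each array alone. Some genes that the rule or the lists select are not reported here.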

Additional observations from a re-analysis of the deposited data

How the results depend on the processing

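Cmtm7 and Pcp4l1 were the 2 members lower by more than 1.3-fold on both arrays, and no member was higher, with normexp and loess, with normexp and centring on the passing genes, with the deposited log2 table, without the GC trend, averaged over probes, with the filter met in at least 1 channel, and at 1.5-fold. Leaving out either array gave 2 lower and 0 higher members. Both lower members were bound to stay lower there, since the rule already required 1.3-fold on each array. The filter met in at least 1 channel also leaves the ratios unchanged. These settings could only have added members. Normexp with centring over all spots shifted all passing genes upward, by 0.55 (log2) at their median. It gave 1 lower member (Pcp4l1), 2 higher ones (Cmtm6 and Cmtm8) and an adjusted p by limma under 0.05 for 3 relatives (Cmtm3, Cmtm6 and Cmtm8). Cmtm7 then had a log2 ratio of -0.36, Pcp4l1 -0.66, Cmtm3 0.37, Cmtm6 0.69 and Cmtm8 0.53. The share of all passing genes called under this centring is not given here, so its counts are no result about the relatives. With the filter on spots well above background, or with no filter, 1 member, Pcp4, was higher. The share of all genes called higher under these looser filters is not given here, so this count is no result about Pcp4. Under these 9 alternatives that recompute the log2 ratios or the filter, the mean log2 ratio ran from -0.92 to -0.36 for Cmtm7, from -1.34 to -0.66 for Pcp4l1, and from 0.15 to 0.80 for Pcp4. That of Cmtm4 ran from -0.21 to 0.56. Averaged over probes, Cmtm7 had -0.52 and Pcp4l1 -0.91. At the dimmer Pcp4l1 probe alone the log2 ratio was -0.58, with normexp and loess -0.42, and with normexp and centring over all spots -0.18. Over the alternatives, the adjusted p by limma ran from 0.0109 to 0.601 for Cmtm3, from 4.15e-06 to 0.739 for Cmtm6 and from 0.000366 to 0.932 for Cmtm8. Without the pairing by array (no replicate block), 0 relatives had an adjusted p under 0.05 and 0 an unadjusted p under 0.05. Cmtm4 and Pcp4 were too dim to be measured with the precision of the other genes, and 2 arrays without a dye swap limit all results.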
